A study of Danio rerio with 6 samples.

Results

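The genes described are the Notch receptors notch1a, notch1b, notch2 and notch3, the ligands dll4, dlc, jag1a, jag1b and jag2b, and the ubiquitin ligase gene mib1. They were taken by name, and all 10 were among the 10232 genes of the deposited table. The table holds bulk RNA-seq of endothelial cells (ECs) sorted for GFP from the caudal haematopoietic tissue (CHT), the tail niche of blood stem and progenitor cells, of zebrafish embryos at 36 h post fertilisation. There were 3 libraries from flk1:GFP;flk1:GAL4;UAS:DN-bmal1a embryos (DN-bmal1a) and 3 from flk1:GFP;UAS:DN-bmal1a embryos (control), each made from about 5000 cells. All embryos carried the flk1:GFP reporter and the UAS:DN-bmal1a transgene, so that the groups differed in the flk1:GAL4 driver. flk1 is another name of kdrl, a vascular endothelial growth factor receptor gene, and GAL4, taken from yeast, activates genes that carry a UAS sequence. The transgene encodes a form of the clock factor Bmal1a without its transactivation domain, which is made wherever the flk1 promoter is active. The comparison asks which genes are expressed differently in CHT-ECs when Bmal1 function is impaired. The controls lacked GAL4, so that an effect of GAL4 itself cannot be told apart from one of DN-Bmal1a.

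Notch signalling passes between neighbouring cells. A ligand of the Delta or Jagged family on one cell binds a Notch receptor on the next, mib1 ubiquitinates the ligand so that it is pulled into its own cell, and this pull opens the receptor to cleavage by an ADAM protease and then by γ-secretase. The freed intracellular part enters the nucleus, binds the DNA-binding protein Rbpj and switches on target genes such as those of the Hey and Her repressors. In the embryonic vasculature the pathway is known for arterial identity, for limiting sprouts, and for the emergence of haematopoietic stem cells from the floor of the dorsal aorta. Zebrafish mutants of mib1, known as mind bomb, lack most Notch signalling.

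Values are normalized CPM, that is, reads divided by an effective library size and multiplied by 1000000. The reads behind them could be recovered as whole numbers and totalled 43150256, 26161915 and 55004237 in DN-bmal1a replicates 1, 2 and 3, and 42988283, 37248181 and 51833686 in control replicates 1, 2 and 3. One read was worth between 0.0178 and 0.0367 CPM. Between 722 and 1760 listed genes had no read in a DN-bmal1a library, against 34 to 696 in a control library, with the most in DN-bmal1a replicate 2. The bmal1a gene, listed as arntl1a, had 42.9, 22.1 and 55.5 CPM in DN-bmal1a, against 20.6, 16.8 and 3.28 CPM in controls, and its reads cannot be separated from those of the transgene. Of the 16 endothelial markers that the table lists, all had reads in every library, and their summed level was 6911 to 8132 CPM in DN-bmal1a and 9604 to 11082 CPM in controls. In bulk libraries, fewer cells of a type and less RNA per cell cannot be told apart.

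A gene was called at a limma adjusted p below 0.05 together with a difference of 2-fold or more. None of the 10 genes was called, and 1 of all genes (0.00977%) was. With edgeR at like thresholds the study listed more genes as changed in these libraries, most of them lower, and none of the 10. The values of 9 of the 10 lay below the controls on average, where 58.1% of all genes had a log2 fold change below 0. In 4 genes (notch1a, dll4, jag1b and jag2b) all 3 DN-bmal1a libraries lay below all 3 controls, and in none did all lie above. Among all genes, 10.7% were lower without overlap and 7% higher without overlap. The unadjusted limma p was under 0.05 for 2 of the 10, dll4 and notch1a, both lower, beside 8.12% of all genes lower and 3.1% higher at that level. The median log2 fold change of the 10 genes was -0.55, against -0.13 over all genes. The endothelial markers, which hold none of the 10, had a median of -0.57, with 15 of 16 below 0 and 6 of 16 lower without overlap. Without DN-bmal1a replicate 3 the median of the 10 genes was -0.38 and that of the endothelial markers -0.50. Without control replicate 3 these medians were -0.71 and -0.43. How near they lay thus depended on the library left out.

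**Figure D1:**
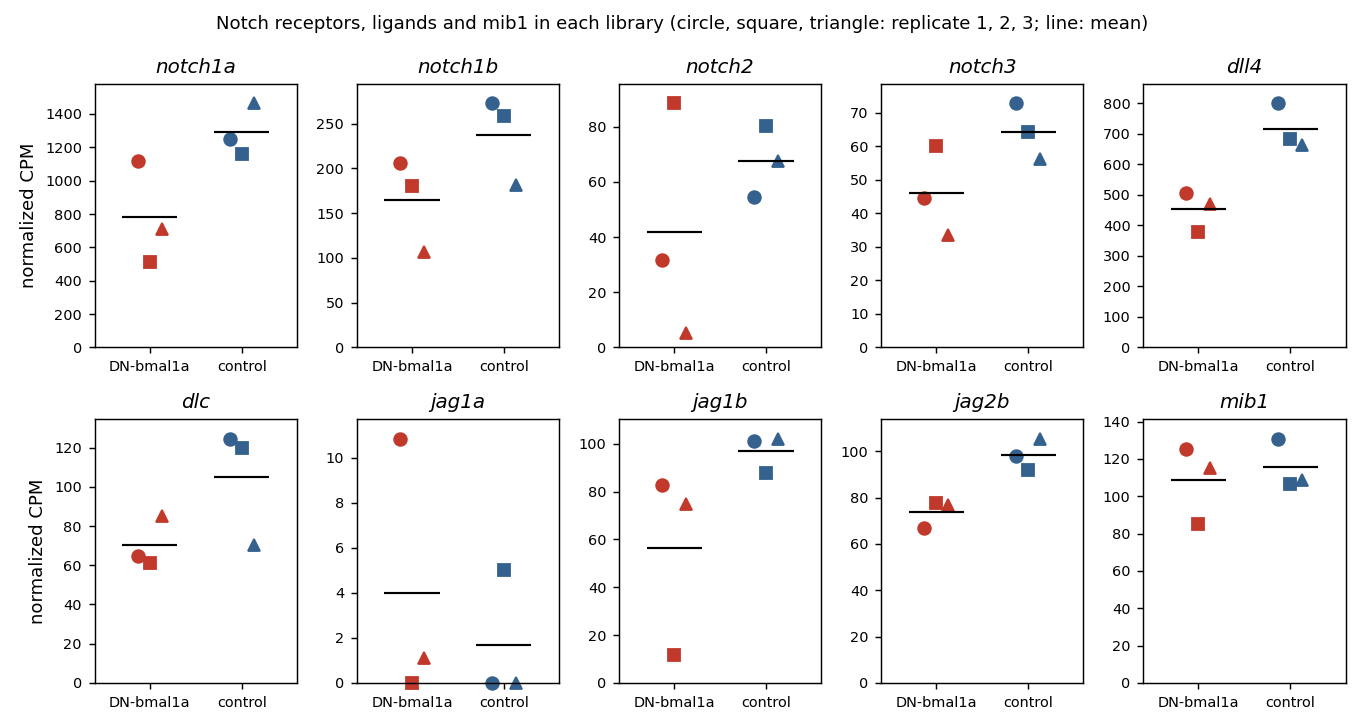
Normalized CPM (y axis, from 0, with its own scale in each panel) of the 10 genes in the 3 DN-bmal1a (red) and 3 control (blue) libraries, with the mean of each group as a line. In notch1a, dll4, jag1b and jag2b every DN-bmal1a point lies below every control point, while jag1a is at 0 in 3 of the 6 libraries.

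notch1a is one of the zebrafish counterparts of mammalian NOTCH1. Its values were 1119.8, 514 and 712 CPM in DN-bmal1a replicates 1, 2 and 3, against 1250.2, 1160.2 and 1465 CPM in controls. All DN-bmal1a libraries were below all controls, but replicate 1 lay close to the lowest control. The mean was 782 ± 309 CPM (SD, n = 3) in DN-bmal1a and 1292 ± 156 CPM (SD, n = 3) in controls, so that notch1a stood at 60.5% of its control level. Its log2 fold change was -0.79 with a standard error of 0.26 (95% interval -1.37 to -0.21). In limma the p was 0.0128 before adjustment and 0.334 after it. The two-sided exact permutation test gave p = 0.1, the smallest that 3 libraries against 3 allow. Without DN-bmal1a replicate 2 the log2 fold change was -0.52, more than 1.5 times smaller.

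notch1b, the other NOTCH1 counterpart, is known from zebrafish arterial endothelium. It had 206, 181 and 107 CPM in DN-bmal1a, against 273, 258 and 181 CPM in controls. The groups overlapped, since control replicate 3 lay below DN-bmal1a replicate 1, and replicate 3 was the lowest library within each group. On the log2 scale the difference was -0.56 with a standard error of 0.28 (95% interval -1.18 to 0.06, limma adjusted p = 0.493). Without DN-bmal1a replicate 3 it was -0.27.

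notch2 was the receptor gene with the widest spread. It had 31.6, 88.6 and 5.24 CPM in DN-bmal1a, from 1366, 2416 and 295 reads, against 54.5, 80.4 and 67.7 CPM in controls. The DN-bmal1a libraries held both the highest and the lowest of the 6 values. The standard deviation was 101.8% of the mean in DN-bmal1a and 19.2% in controls. The limma adjusted p was 0.55. Its log2 fold change, -1.36 with a standard error of 0.79, was -0.32 without DN-bmal1a replicate 3 and -2.25 without DN-bmal1a replicate 2. edgeR's quasi-likelihood test on the recovered reads, which takes the ratio of group means, gave -0.69.

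notch3, a receptor that vascular mural cells are known to use, had 44.7, 60.1 and 33.6 CPM in DN-bmal1a, against 72.8, 64.2 and 56.2 CPM in controls. The groups overlapped in 1 pair of libraries, DN-bmal1a replicate 2 and control replicate 3. The log2 fold change was -0.50 with a standard error of 0.31 (95% interval -1.19 to 0.18, limma adjusted p = 0.578), and it was -0.30 without DN-bmal1a replicate 3. Of the 11 listed mural cell markers 4 were in the table, with a summed level of 56.3 to 126 CPM in DN-bmal1a and 127 to 175 CPM in controls. Of the 4, myh11a gave most of this sum in every library, and foxc1b was also counted among the arterial genes given below. The part of mural cells in the notch3 values was not tested.

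Summed over the 4 receptor genes, the level was 1402, 843 and 858 CPM in DN-bmal1a, against 1650.3, 1563 and 1770.0 CPM in controls. This sum followed notch1a, which gave most of it. Levels of different genes are not ranked, since reads also scale with transcript length and no lengths were used here.

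Among the ligands, dll4 is the Delta ligand of arterial and sprouting endothelium. It had 507, 378 and 471 CPM in DN-bmal1a replicates 1, 2 and 3, from 21897, 10316 and 26483 reads, against 799.8, 682 and 662 CPM in controls, from 33117, 25460 and 33290 reads. All 3 DN-bmal1a libraries were below all 3 controls, with a gap wider than the spread within either group. The mean was 452 ± 66.5 CPM (SD, n = 3) in DN-bmal1a and 714 ± 74.6 CPM (SD, n = 3) in controls, so that dll4 stood at 63.3% of its control level. By in situ hybridisation, the study found dll4 normal in embryos with this driver and transgene. That was at an earlier stage and with another method than here.
For dll4 the log2 fold change was -0.66 with a standard error of 0.17 (95% interval -1.05 to -0.28). Its unadjusted limma p of 0.00331 ranked 131 among all genes, and the adjusted p was 0.256. The exact permutation test gave p = 0.1 (two-sided). With 1 library left out at a time the log2 fold change stayed between -0.75 and -0.54. DESeq2 on the recovered reads gave dll4 an adjusted p of 0.0179 at a log2 fold change of -0.64, which is under the fold threshold. DESeq2 called 1.83% of all genes past both thresholds and none of the 10, and edgeR's quasi-likelihood test called 0% (804 genes at an unadjusted p under 0.05). Over all alternatives the adjusted p of dll4 ranged from 0.0179 to 0.848.

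dlc encodes DeltaC, a ligand of the somite segmentation clock that is also known from the dorsal aorta. It had 64.6, 61.0 and 85.0 CPM in DN-bmal1a, against 125, 120.1 and 70.5 CPM in controls. Control replicate 3 lay within the range of the DN-bmal1a libraries, so that the groups overlapped. This made a log2 fold change of -0.55 with a standard error of 0.29 (95% interval -1.19 to 0.10, limma adjusted p = 0.52). Of 15 listed genes of paraxial mesoderm and somites, 7 were in the table. All 7 had a log2 fold change below 0, beside 58.1% of all genes. Their summed level was 52.4 to 81.5 CPM in DN-bmal1a and 119 to 172 CPM in controls. Most of it came from meox1 and foxc1a, and foxc1a was also counted among the arterial genes given below. ta, 1 of the 7 and part of this sum, had 0, 0 and 3 reads in DN-bmal1a, against 218, 842 and 188 reads in controls. It was thus listed only through the controls, was also selected by the study as changed in these libraries, and supports no direction. tbx6, mespaa, mespab, ripply1 and ripply2 were not among the genes analysed, and the part of somitic RNA in the dlc values was not tested.

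jag1a and jag1b are the zebrafish counterparts of mammalian JAG1. jag1b had 82.7, 11.8 and 74.9 CPM in DN-bmal1a, against 101, 87.9 and 102 CPM in controls. All DN-bmal1a libraries were below all controls (two-sided exact permutation test, p = 0.1), but replicate 2, with 323 reads, stood far below the other libraries. Its log2 fold change, -1.17 with a standard error of 0.62, did not pass the test (limma adjusted p = 0.52) and was -0.30 without DN-bmal1a replicate 2. The same library had the most genes without reads.
jag1a had 10.9, 0 and 1.102 CPM in DN-bmal1a, from 469, 0 and 62 reads, against 0, 5.01 and 0 CPM in controls, from 0, 187 and 0 reads. It was read in some libraries of each group and not in others, and no direction can be given. Its log2 fold change of 0.68 had a standard error of 1.05 (limma adjusted p = 0.835) and was -0.33 without DN-bmal1a replicate 1.

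jag2b, one of the Jagged2 genes, was the steadiest of the 10 genes. It had 67.0, 77.5 and 76.6 CPM in DN-bmal1a, against 97.7, 91.7 and 105 CPM in controls. All 3 DN-bmal1a libraries were below all 3 controls (two-sided exact permutation test, p = 0.1). The standard deviation was 7.93% of the mean in DN-bmal1a and 7.02% in controls, where the median over the 6611 genes with a mean of at least 10 CPM was 30.7% and 23.4%. The mean was 73.7 ± 5.85 CPM (SD, n = 3) in DN-bmal1a and 98.3 ± 6.90 CPM (SD, n = 3) in controls, so that jag2b stood at 75.0% of its control level. Its log2 fold change was -0.41 with a standard error of 0.22 (95% interval -0.90 to 0.08, limma adjusted p = 0.521) and stayed between -0.46 and -0.34 with 1 library left out at a time. limma takes the spread of a gene in part from genes of like level.

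mib1, which encodes the ubiquitin ligase of Delta and Jagged ligands, had 125, 85.1 and 115 CPM in DN-bmal1a, against 131, 107 and 109 CPM in controls. The groups overlapped widely. Its log2 fold change was -0.10 with a standard error of 0.23 (95% interval -0.61 to 0.41, limma adjusted p = 0.892), and it turned to 0.063 without DN-bmal1a replicate 2. The 5 ligand genes summed to 732, 529 and 708 CPM in DN-bmal1a, against 1123, 986 and 940.1 CPM in controls, a sum that dll4 dominated.

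**Figure D2:**
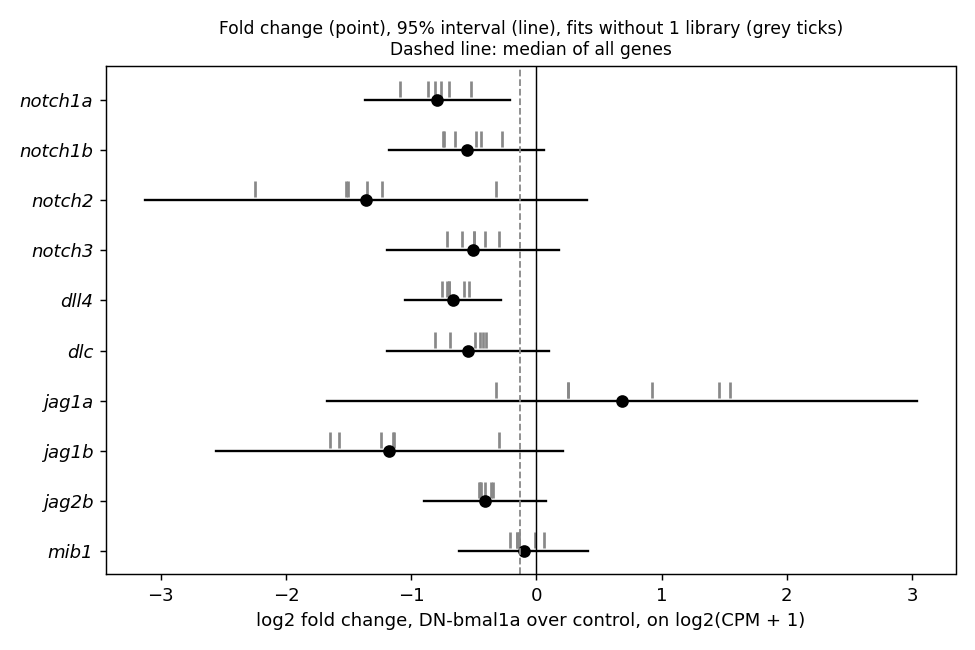
Log2 fold change of DN-bmal1a over control on log2(CPM + 1) (x axis) of the 10 genes, with the limma estimate (point), its 95% interval (line) and the estimates without 1 library (grey ticks). The intervals of notch1a and dll4 lie below 0, those of the other 8 genes include 0, and the ticks of notch2, jag1a and jag1b spread most.

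Since endothelial genes as a group had lower values in DN-bmal1a, each gene was also set against the mean log2(CPM + 1) of the 16 endothelial markers in the same library. That mean was 8.54 ± 0.17 in DN-bmal1a and 9.02 ± 0.12 in controls (SD, n = 3 each). The difference of -0.48 had no overlap between groups (two-sided exact permutation test, p = 0.1). tal1, 1 of the 16 markers, is also counted among the erythroid genes given below. It was the only marker with a log2 fold change above 0 (0.52, with groups that overlapped), and values without it were not computed.
Relative to these markers, dll4 was at 0.28, 0.20 and 0.33 in DN-bmal1a, against 0.68, 0.47 and 0.22 in controls, on the log2 scale. The groups overlapped, with control replicate 3 between DN-bmal1a replicates 1 and 2. The difference was -0.19 (two-sided exact permutation test, p = 0.3), and it ranged from -0.31 without control replicate 3 to -0.076 without control replicate 1. With the median of the markers in place of the mean, it was -0.28 without overlap between the groups (exact permutation p = 0.1).
notch1a had a relative difference of -0.31 (exact permutation p = 0.4), with DN-bmal1a replicate 1 above all controls. notch1b had -0.081, notch3 -0.027, dlc -0.069 and jag2b 0.066 (exact permutation p between 0.7 and 1). In notch1b, notch3 and dlc this was smaller than the spread between replicates of either group. The difference of jag2b was smaller than the SD of 0.28 in DN-bmal1a but not that of 0.046 in controls. mib1 had 0.38 with groups that overlapped (exact permutation p = 0.2). The spread exceeded the difference in both groups in jag1a, and in DN-bmal1a only in notch2 and jag1b. These relative values of genes other than dll4 were added after the values had been seen.

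**Figure D3:**
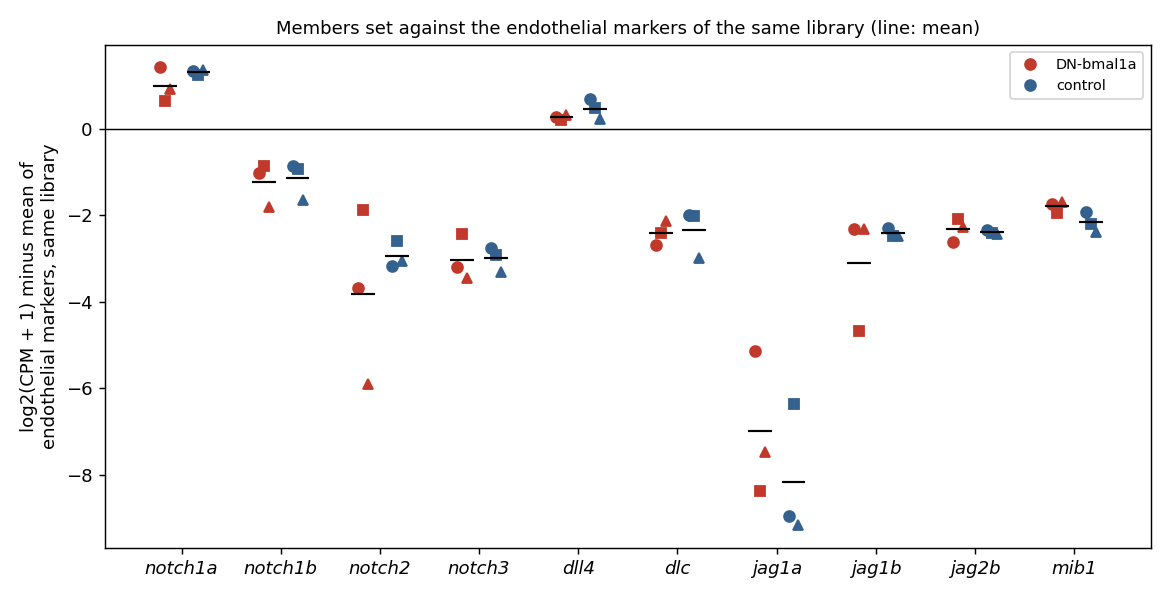
Log2(CPM + 1) of each gene minus the mean of 16 endothelial markers in the same library (y axis, log2 units), for DN-bmal1a (red, left) and control (blue, right) libraries, with group means as lines. The groups overlap in all 10 genes, and the points of dll4 span 0.20 to 0.33 in DN-bmal1a and 0.22 to 0.68 in controls.

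Endothelial genes did not all have the same difference. The median log2 fold change of 20 arterial genes in the table was -0.44 (-0.28 without DN-bmal1a replicate 2). Of them, 5 had an unadjusted limma p under 0.05, all lower, beside 8.12% of all genes lower at that level. These were the water channel genes aqp1a.1 (-0.99) and aqp8a.1 (-1.03), the VEGF receptor gene flt1 (-1.35), the ephrin gene efnb2a (-0.65) and the tight junction gene cldn5b (-0.50). Of 11 venous genes, 10 were lower at that level, with a median of -1.12, tek among them, which is also an endothelial marker. Those with the smallest p were the apelin receptor gene aplnrb (-1.89), the scavenger receptor gene stab2 (-2.05), the lymphatic and venous VEGF receptor gene flt4 (-1.12), the venous transcription factor gene nr2f2 (-2.00) and the lymphatic factor gene prox1a, which had 2 reads in DN-bmal1a replicate 3 and none in the other DN-bmal1a libraries, so that it was listed only through the controls. The study selected aplnrb, stab2, flt4, nr2f2, aqp8a.1 and stab1, another of the 10 venous genes, as changed in these same libraries. They are thus no independent evidence of a direction. None of these genes passed an adjusted limma p of 0.05.
Against the mean of the 11 venous genes in the same library, dll4 was at 1.53, 1.97 and 2.01 in DN-bmal1a, against 1.63, 1.12 and 0.75 in controls. The groups overlapped in 1 pair, and the difference was 0.67 (two-sided exact permutation test, p = 0.2). notch1a was at 2.67, 2.41 and 2.61 in DN-bmal1a, against 2.27, 1.89 and 1.90 in controls, without overlap (difference 0.54, exact permutation p = 0.1). The venous mean holds aplnrb, stab2, stab1, flt4 and nr2f2, which the study selected as lower here, and prox1a, listed only through the controls. A higher value of any gene against this mean thus follows in part from that choice, and these differences and p-values support no direction. Against the mean of 19 arterial genes, those above without the ligand gene dlb, dll4 differed by -0.18 (exact permutation p = 0.5). notch1a differed by -0.30 (exact permutation p = 0.2). The arterial mean holds aqp8a.1, which the study selected as lower here, and efnb2a and hey2, listed below as Notch targets. It is thus no independent reference. The value of dll4 was -0.070 without control replicate 1 and -0.086 without DN-bmal1a replicate 1. The comparisons with arterial and venous genes were added after the values had been seen.

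The rest of the pathway is given by its steps. The counts of each step stand beside 8.12% of all genes lower and 3.1% higher at an unadjusted limma p under 0.05. Of 7 further ligand genes 3 were in the table, and all had groups that overlapped. The best read of them, dla (DeltaA), had 13.8, 0 and 28.0 CPM in DN-bmal1a, against 78.9, 15.9 and 14.1 CPM in controls. In the step of ligand endocytosis, 1 of 9 genes had an unadjusted limma p under 0.05. This was cltca, a clathrin heavy chain gene, with 1105, 656 and 757 CPM in DN-bmal1a, against 1032, 1283 and 1407 CPM in controls. DN-bmal1a replicate 1 lay within the range of the controls, and the log2 fold change was -0.59 (limma adjusted p = 0.367).

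Sugars added to the receptor set which ligands it answers to, and furin cuts it on its way to the cell surface. Of 9 such genes in the table, 3 had an unadjusted limma p under 0.05, all lower, and the median was -0.94 (-0.43 with a pseudocount of 10). The best read of the 9, lfng, a Fringe gene named after its values were seen, had groups that overlapped. It had 631, 583 and 597 CPM in DN-bmal1a, against 801, 499 and 876 CPM in controls (log2 fold change -0.22, limma adjusted p = 0.722). mfng, a Fringe glycosyltransferase gene, had 69.4, 30.9 and 34.4 CPM in DN-bmal1a, against 54.9, 93.4 and 106 CPM in controls (log2 fold change -0.94, limma adjusted p = 0.411). furina, a furin gene, had 48.4, 27.6 and 27.7 CPM in DN-bmal1a, against 42.6, 76.6 and 64.3 CPM in controls (log2 fold change -0.81, limma adjusted p = 0.445). In both genes DN-bmal1a replicate 1 lay above control replicate 1. gxylt1b, a xylosyltransferase gene, was listed at 0 in all DN-bmal1a libraries, against 3.57, 1.90 and 5.15 CPM in controls. It is 1 of the 3 genes counted above, but it entered the table only through the controls, which hold all of its reads, and so supports no direction.

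Genes of receptor cleavage had a median log2 fold change of 0.02, and 0 of 8 had an unadjusted limma p under 0.05 in either direction. The best read was adam10a, the protease of the first ligand-dependent cut, with 403, 291 and 358 CPM in DN-bmal1a, against 251, 363 and 368 CPM in controls.

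Of 8 genes of receptor turnover, 2 had an unadjusted limma p under 0.05. dtx2, a Deltex ubiquitin ligase gene, had 149.6, 62.7 and 99.99 CPM in DN-bmal1a, against 179, 170.1 and 211 CPM in controls, without overlap (log2 fold change -0.92, limma adjusted p = 0.334). numbl, a relative of the Notch inhibitor numb, had 4.17, 5.57 and 0.089 CPM in DN-bmal1a, against 10.99, 20.6 and 22.2 CPM in controls, again without overlap (log2 fold change -2.45, limma adjusted p = 0.357).
In the nuclear complex 4 of 12 genes were in the table and 0 had an unadjusted limma p under 0.05, with a median of 0.05. The best read was snw1, a cofactor and splicing gene, with 177, 211 and 248 CPM in DN-bmal1a, against 215, 169.5 and 162 CPM in controls. Of 12 corepressor genes, ctbp2a was the 1 gene at that level, with 0.72, 0.73 and 10.9 CPM in DN-bmal1a, against 22.8, 31.4 and 27.6 CPM in controls (limma adjusted p = 0.278). DN-bmal1a libraries 1 and 2 thus held few ctbp2a reads, and the size of its log2 fold change of -3.09 rests in part on the added 1.

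**Figure D4:**
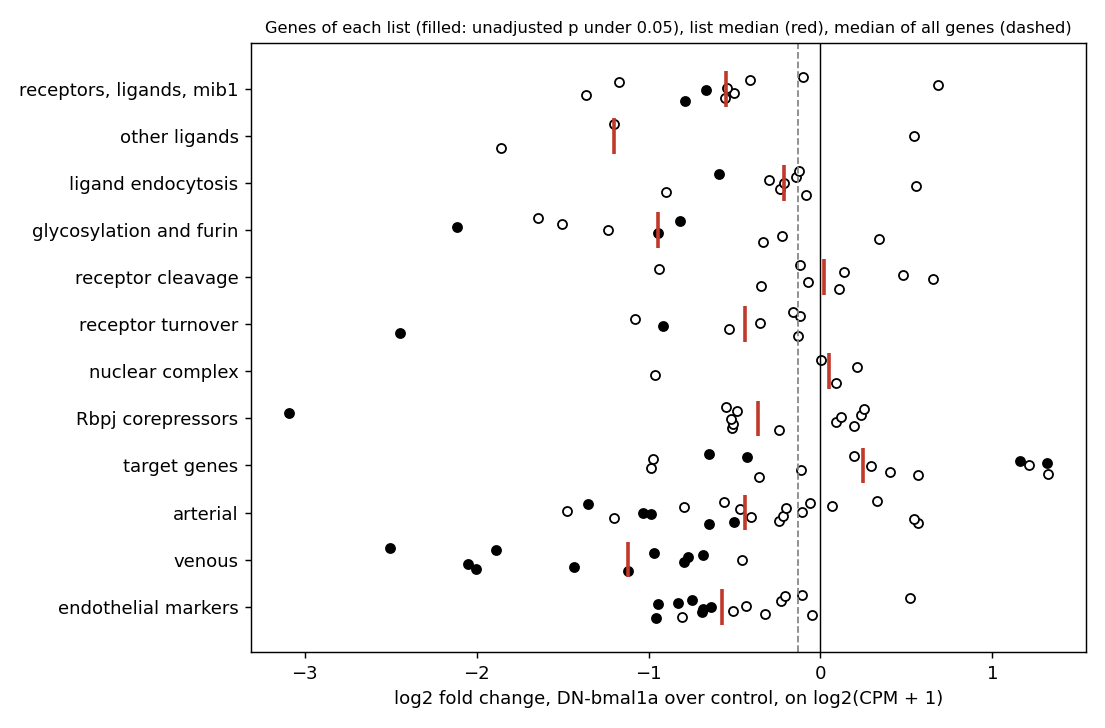
Log2 fold change of DN-bmal1a over control on log2(CPM + 1) (x axis) of the genes of each pathway step and vascular list (rows), filled where the unadjusted limma p was under 0.05, with list medians in red and the median of all genes dashed. The venous genes have a median of -1.12, the receptors, ligands and mib1 one of -0.55 and the endothelial markers one of -0.57. The target genes lie on both sides of 0.

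Genes listed as targets of the pathway lay on both sides of 0. Those in the table were Hey, Her and Hes-type repressor genes, Nrarp genes and efnb2a. Whether each of them answers to Notch in these cells was not tested. Of 14 in the table, 2 were lower and 2 higher at an unadjusted limma p under 0.05, beside 8.12% and 3.1% of all genes. Without overlap 4 were lower and 2 higher, beside 10.7% and 7% of all genes. The median log2 fold change was 0.25. That median was -0.084 without DN-bmal1a replicate 1, 0.11 without control replicate 1 and 0.12 with a pseudocount of 10, so that no direction can be given for the targets as a group. nrarpa, a target that dampens Notch activity, had 313, 284 and 357 CPM in DN-bmal1a, against 494, 406 and 387 CPM in controls (log2 fold change -0.43, limma adjusted p = 0.408). The arterial ligand gene efnb2a had 124, 77.4 and 92.6 CPM in DN-bmal1a, against 159, 148 and 147 CPM in controls (log2 fold change -0.65, limma adjusted p = 0.357). Both were without overlap between the groups.
her15.1 had 25.6, 35.7 and 27.2 CPM in DN-bmal1a, against 21.6, 7.15 and 8.69 CPM in controls (log2 fold change 1.32, limma adjusted p = 0.414), and her15.2 differed by 1.16 on the log2 scale (limma adjusted p = 0.428). These Hes-type repressor genes are close copies of one another, so that how reads were shared between them is uncertain.
The Hey repressor genes hey1 and hey2, named after their values were seen, had groups that overlapped. hey1 had 304, 143 and 221 CPM in DN-bmal1a, against 328, 241 and 258 CPM in controls, and hey2 had 38.0, 53.0 and 51.4 CPM in DN-bmal1a, against 53.4, 44.0 and 12.9 CPM in controls.

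RNA of other cell types that use Notch genes was also measured. Of 18 neural genes listed, 13 were in the table. Of these, 10 were below 0 and 4 lower at an unadjusted limma p under 0.05, beside 58.1% and 8.12% of all genes. Their summed level was 73.8 to 103 CPM in DN-bmal1a and 158 to 199 CPM in controls, and zic2a, a neural transcription factor gene, was at 0 in all DN-bmal1a libraries. zic2a is 1 of those 4 genes, was listed only through the controls, and was selected by the study as changed in these libraries. sox3 and snap25a, also among the 4, had reads in all controls but in DN-bmal1a only in replicate 1. They too were listed through the controls, so that the count of 4 supports no direction. Of 13 erythroid genes listed, 12 were in the table, with a summed level of 4793 to 7165 CPM in DN-bmal1a and 1499 to 4255 CPM in controls. Of the 12, 10 were above 0 and 2 below 0, beside 58.1% of all genes below 0. At an unadjusted limma p under 0.05, 6 were higher and 1 lower, beside 3.1% and 8.12% of all genes. Embryonic globin genes such as hbae1 made up much of the erythroid sum and were among those higher genes. They were also selected by the study, so that these counts support no direction. gata1a, a transcription factor gene of red cells, had 0, 0 and 1.83 CPM in DN-bmal1a, against 4.13, 5.84 and 8.89 CPM in controls. In DN-bmal1a it had reads in replicate 3 only, so that it was listed through the controls and supports no direction. hbae1 and gata1a were named after their values were seen. Epidermal genes summed to 10938 to 15500 CPM in DN-bmal1a and 16226 to 17545 CPM in controls, much of it from krt18 and krt8. Of the 14 epidermal genes, 11 were below 0 and 3 above, beside 58.1% of all genes below 0. At an unadjusted limma p under 0.05, 1 was lower and 2 higher, beside 8.12% and 3.1% of all genes. The sum thus gives no direction for the list. Muscle genes summed to 918, 1001 and 4378 CPM in DN-bmal1a replicates 1, 2 and 3, and to 1355, 2015 and 4702 CPM in controls. For myeloid genes the sums were 6346 to 9670 CPM and 6545 to 11323 CPM, and for neural crest and pigment genes 0 to 137 CPM and 15.6 to 33.8 CPM, respectively. The part of these cell types in the values of the Notch genes was not tested.

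The genes whose values over the 6 libraries were most like those of dll4, by Pearson's r of log2(CPM + 1) among 6610 genes with a mean of at least 10 CPM, were rbpms2a (r = 0.993), sept6 (0.990), ier2 (0.989), egfl7 (0.986) and id1 (0.984). egfl7 is an endothelial secreted factor, ier2 an early response gene and id1 an inhibitor of basic helix-loop-helix factors. For notch1b they were zgc:162193 (r = 0.985), larp6 (0.981), slc20a1b (0.979), slc25a36a (0.972) and smarca2 (0.970). These values describe 6 libraries that share their group difference and scaling, and 60 genes reached an r of at least 0.95 with dll4 and 14 with notch1b.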

How the data were processed

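RNA of sorted GFP-positive tail cells was made into libraries with a SMARTer and Nextera kit that amplifies cDNA and does not mark strand. The authors mapped the reads with STAR 2.7.0f and counted them per gene with HTSeq 0.9.1. The study's methods name the danRer10 build, whereas the submitters' processing notes name GRCz11, and no coordinates are given here. The deposited signal is a table of normalized CPM made with edgeR (3.38.4 in the notes), and no low-count filter is named, but no gene in the table was read in fewer than 3 libraries. Dividing each library by its smallest step gave whole reads for 100% of values (within 0.01 reads). The columns did not sum to 1000000, so that the values are reads over an effective library size.

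DN-bmal1a samples were grouped by their genotype labels and controls by their titles. Columns were matched to samples by title, although the descriptions of control samples use words of the DN-bmal1a titles as library names. The main test, chosen when the values were taken as plain CPM, was limma 3.58.1 (lmFit, eBayes with a trend) on log2(CPM + 1) over all 10232 genes in R 4.3.3, with Benjamini-Hochberg adjustment, a threshold of 0.05 and a fold change of at least 2. Fold changes on this scale understate those of genes with few reads. Single values had a two-sided exact permutation test over the 6 libraries. Nothing states that same-numbered libraries were made together, and p-values measure the spread between these libraries, which came from pooled embryos. Counting error was far below that spread for all but genes with few reads. No 2 libraries agreed within counting error.

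The alternatives were pseudocounts of 0.1 and 10, filters at a mean of 1 and 10 CPM, each library rescaled to the same sum, quantile normalization, eBayes without a trend, a block for the replicate number, weights per array, leaving out each library in turn, and count tests of the recovered reads (DESeq2 1.42.0, and quasi-likelihood in edgeR 4.0.16). The tests were tested on simulated data. The members and gene lists were chosen with earlier results of these data known. The genes named were all 10 members and, in each pathway list, up to 5 with the smallest unadjusted p under 0.05, or else the gene with the highest mean CPM. For dll4 and notch1b, the 5 genes most like each in pattern were also named. Other genes are marked as named after their values were seen, or are markers. The planned shares of receptors per coding length were not computed, since no lengths were used here. A gene of the receptor cleavage list is not reported here by name.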

Additional observations from a re-analysis of the deposited data

How the results depend on the processing

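The number of genes called, 1 with limma, was 7 with eBayes without a trend, 22 with array weights, 187 with DESeq2, and 0 in the quasi-likelihood test of edgeR, both without a block (804 genes at an unadjusted p under 0.05) and with the replicate block (572), and 0 to 1 with each library left out (754 to 1531 at an unadjusted p under 0.05). It stayed at 1 in the other 7 settings, the limma fit with the replicate block among them. None of the 10 Notch genes passed both thresholds in any setting run. Same-numbered libraries of the 2 groups had deviations that correlated by -0.081, 0.030 and 0.019. These correlations gave no sign of pairing by number, while muscle genes summed highest in replicate 3 of both groups. So few pairs cannot show whether such libraries were made together. With the block in limma, the unadjusted p was under 0.05 in 4 of the 10 genes, beside 1021 of all 10232 genes. Without it these counts were 2 and 1148, and the log2 fold changes were the same. Against the endothelial markers, dll4 differed by -0.19 with the pairing too (exact sign-flip p = 0.5). The directions of 8 genes held in all settings. jag1a was -0.15 with array weights and ranged from -0.33 to 1.55 with each library left out, and mib1 was 0.032 with array weights and ranged from -0.21 to 0.063. The causes were not tested. Over the fits that left out each library, the ranges were -1.09 to -0.52 for notch1a, -0.75 to -0.27 for notch1b, -2.25 to -0.32 for notch2, -0.71 to -0.30 for notch3, -0.81 to -0.40 for dlc and -1.65 to -0.30 for jag1b. Of the medians of gene lists, 345 stayed within the spread between replicates and 15 did not. Quantile normalization moved the median of all genes to 0.04, and dll4 was -0.65 there. Among genes at an unadjusted p under 0.05, 72.4% were lower in DN-bmal1a, 63.0% with equal sums and 56.4% after quantile normalization. jag1a had no reads in 3 of the 6 libraries, and its 95% interval includes 0.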
